A study of Mus musculus with 76 samples.

Results

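The comparison described here is that of lung vessels from Noxo1 knockout mice after 8 months of cigarette smoke with lung vessels from Noxo1 knockout mice labelled as control at the same time. Its members were chosen by their labels alone, which gave 4 smoke arrays and 5 control arrays, together 9 of the 76 arrays of the series. All 9 mice were labelled knock-out, the controls as well as the smoke-exposed ones. The line is given as C57BL/6-Noxo1(tm1881_17.2Arte), in a protocol text that is the same for every group, wild-type and control mice included. Exposure began at week 12 of age and used Kentucky 3R4F research cigarettes at 140 mg of particles per m3, for 6 h on each of 5 days a week. Each array came from 1 mouse, and the labels give neither sex nor litter. Vessels were microdissected, the RNA was amplified before labelling with Cy5, and each array was hybridised in a single colour to an Agilent mouse design. The labels do not say whether arteries, veins or both were taken. Other groups used below were wild-type vessels at 8 months (4 smoke and 5 control arrays), knockout vessels after 3 months (5 smoke and 4 control arrays) and the alveolar septa of knockout mice at 8 months (5 smoke and 5 control arrays, from the same 9 mice and 1 more exposed mouse).

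NOXO1 is the organiser protein that, with the activator NOXA1, switches on the superoxide-producing enzyme NOX1 at the membrane. In vessel walls, superoxide from NADPH oxidases removes nitric oxide and acts on the growth and tone of smooth muscle, whereas in phagocytes the related enzyme built around CYBB (NOX2) serves the killing of microbes. Long cigarette smoke exposure is known in mice to bring macrophages and neutrophils into the lung, to enlarge the airspaces and to thicken the walls of small pulmonary vessels.

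The main outcome was that no gene passed adjustment for smoke in these vessels. With limma, 0 of 20710 genes (0%) had an adjusted p under 0.05, and the lowest adjusted p was 0.402. That value was shared by an unnamed gene model, Gm5150, by Palm and Tmem50b, with differences of 1.78 and 1.39 log2 units toward smoke, and by the muscle gene Sync, with a difference of -2.95. At an unadjusted p under 0.05 there were 891 genes (4.3% of all tested), 506 with more signal in the smoke arrays (2.44%) and 385 with less (1.86%). With cyclic loess, without the trend in the spread model or with array weights, limma again passed 0 genes. A fit over all 76 arrays with mouse as a block passed 2 genes, Tmem50b and Reps2, each at an adjusted p of 0.0489. That fit shares 1 estimate of the spread of a gene between vessels and septa. The standard error of Reps2 was 0.77 in it, against 1.02 over vessels and 0.39 over septa. For Tmem50b these were 0.27, 0.31 and 0.21. Passing there did not rest on the spread between vessel arrays alone. The values below therefore describe these 9 arrays. A gene is called different only where it is said to have passed.

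One array has to be read with care. In the fourth control vessel array, from mouse 7, Xist (the RNA that silences an X chromosome in females) stood at a log2 signal of 12.92 and the Y-linked Eif2s3y at 1.66. The septa array of the same mouse had the opposite pattern, with Xist at 2.07 and Eif2s3y at 8.42. A wild-type control, mouse 29, showed the mirror image, with Xist at 3.45 in vessels and 12.48 in septa. The vessel and septa arrays labelled with either mouse thus did not match each other in these genes. Mouse 18, of smoke array 1, had Xist at 11.89 in vessels and 12.08 in septa, but Eif2s3y at 1.83 and 6.19. The Y-linked Kdm5d and Uty were at 1.36 and 1.95 in that septa array. Both genes were also dim in control vessel arrays 1 and 2, which had Eif2s3y at 6.65 and 7.81. There Kdm5d was at 1.29 and 1.96 and Uty at 2.33 and 2.55. Noxo1 had a signal of 7.03 in control array 4, against 2.42 to 3.89 in the other 4 controls, and of 5.88 in the vessel array of mouse 29. The counts over all genes are given with and without control array 4. Single genes and lists named with a value have the value without it beside the main one where leaving it out turned the sign or moved the value over 1.5 times. Without it limma again passed 0 genes, and 891 genes (4.3%) had an unadjusted p under 0.05, the same number by coincidence, with 498 (2.4%) showing more signal and 393 (1.9%) less.

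Exposure also ran nearly alongside the sex pattern. Smoke arrays 1, 2 and 3 had Xist between 11.56 and 12.38, whereas smoke array 4 had 0.96 with Eif2s3y at 7.18. The other 4 controls had Xist between 1.72 and 4.95 and Eif2s3y between 6.65 and 8.57. Leaving aside control array 4, every control had the Y-linked pattern and 3 of the 4 smoke arrays did not. A fit with the difference between Xist and the mean of the measured Y genes as a covariate is quoted where it bears on a gene.

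The vessel label was borne out by smooth muscle genes. Acta2 (smooth muscle actin) had a median of 14.68 over the 9 vessel arrays and 7.82 over the 10 septa arrays, and Cnn1 (calponin) 13.09 and 4.18. Epithelial genes were nevertheless bright in the vessel samples. Sftpc, the surfactant protein of type 2 pneumocytes, had a median of 14.35 in vessels against 15.23 in septa. Foxj1, the regulator of ciliated airway cells, had a median of 8.18 in vessels against 1.72 in septa. In such bulk samples, fewer cells of a type and less RNA per cell cannot be told apart. Any 2 of the 9 arrays correlated at 0.83 to 0.919 across genes. The median residual SD of a gene between replicates was 0.98 log2 units, and the number of arrays limits the precision.

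The genes described first are the 12 with more signal and the 12 with less signal in the smoke arrays that had the lowest p. They were taken from named genes with a difference of at least 1 log2 unit and a group mean above background. They were chosen by that p, so their separation is a description. In the whole table the groups did not overlap for 172 genes with more signal after smoke (0.831%) and 141 with less (0.681%), and without control array 4 for 321 (1.55%) and 278 (1.34%). A level near background was taken as 3.28, the 95th percentile of the group means of 1324 odorant and vomeronasal receptor genes, genes of smell and pheromone sensing.

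**Figure D1:**
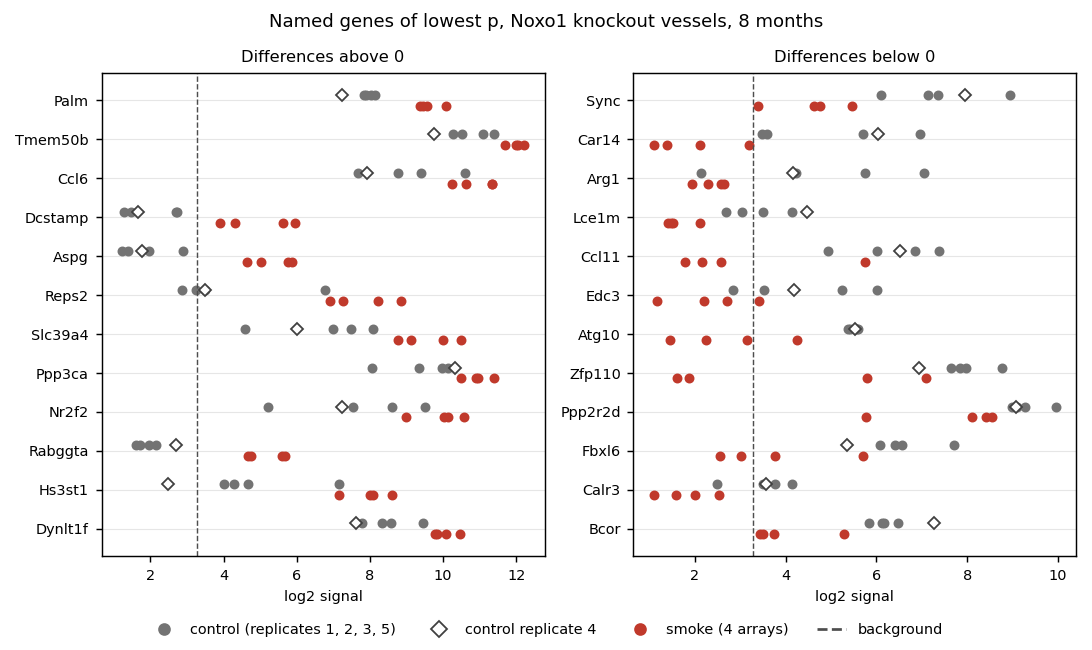
Log2 signal of the 24 named genes of lowest p in each of the 9 arrays. Grey points are controls, the open diamond is control array 4, red points are smoke arrays, and the dashed line is the background level of 3.28. Palm separates at 8.15 against 9.37, whereas Zfp110 spreads from 1.59 to 7.10 among the smoke arrays.

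Palm encodes paralemmin, a lipid-anchored protein of the inner plasma membrane. Its log2 signals were 7.88, 7.84, 8.15, 7.24 and 8.03 in control arrays 1 to 5 and 9.37, 9.56, 9.44 and 10.09 in smoke arrays 1 to 4. Every smoke array lay above every control. The difference was 1.78 ± 0.38 (SE), a 3.44-fold ratio, with an unadjusted p of 4.34e-05 and an adjusted p of 0.402 in limma. It was 1.64 without control array 4 and 1.91 ± 0.40 with the sex-linked covariate.

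Tmem50b, a membrane protein of the endoplasmic reticulum and Golgi, had 10.26, 11.09, 11.39, 9.75 and 10.52 in controls and 12.00, 12.04, 12.22 and 11.69 after smoke. These groups did not overlap either. The difference was 1.39 ± 0.31 (adjusted p = 0.402, limma), and 1.17 without control array 4. Tmem50b was among the pair of genes past adjustment in the fit over 76 arrays. Reps2, encoded on the X chromosome, was the other. It is a protein of receptor endocytosis that binds a partner of the Ral GTPases. Its controls stood at 3.23, 3.48, 6.77, 3.49 and 2.88 and its smoke arrays at 7.26, 6.92, 8.22 and 8.86. Control array 3 reached close to the lowest smoke array. The difference was 3.84 ± 1.02, with an adjusted p of 0.924 in the fit over vessels. It was 4.46 ± 1.03 with the sex-linked covariate. Reps2 averaged 3.97 in these controls and 5.59 to 7.21 in the other vessel groups. In smoke and control septa of knockouts at 8 months, Tmem50b averaged 12.09 and 12.13 and Reps2 8.41 and 8.89. A covariate for pneumocyte markers minus contractile markers gave differences of 1.05 ± 0.27 for Tmem50b and 3.30 ± 1.05 for Reps2. Whether carried-over septal tissue contributed was not tested.

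Dcstamp, which drives the fusion of macrophages and osteoclasts, was under background in every control (1.46, 1.28, 2.69, 1.66 and 2.72) and at 4.32, 5.96, 5.63 and 3.89 after smoke. All 4 smoke arrays were above the background level and no control was. Ccl6, a chemokine made by macrophages, averaged 8.87 ± 1.18 (SD, n = 5) in controls and 10.89 ± 0.54 (n = 4) after smoke. Control array 3, at 10.59, overlapped the smoke arrays, which ran from 10.25 to 11.35. The difference of Ccl6 was 2.01 ± 0.51 (adjusted p = 0.83, limma).

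Nr2f2, the transcription factor that sets venous identity in endothelium, averaged 7.62 ± 1.61 in controls and 9.93 ± 0.68 after smoke. Its control values ran from 5.22 to 9.51 and overlapped the lowest smoke array at 8.98. Ppp3ca, the catalytic subunit of the calcium-dependent phosphatase calcineurin, averaged 9.56 ± 0.92 and 10.93 ± 0.37, and its groups did not overlap. Slc39a4, a zinc importer, averaged 6.63 ± 1.37 and 9.59 ± 0.79, also without overlap. In the other vessel groups of the series Slc39a4 averaged 7.41 to 9.78, above these controls. The difference of Ppp3ca was 1.37 ± 0.37 and that of Slc39a4 was 2.96 ± 0.79, and each missed adjustment (adjusted p = 0.928 and 0.924, limma).

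Aspg, an asparaginase, was at or below 2.90 in every control and between 4.65 and 5.88 after smoke. Rabggta, a subunit of the enzyme that attaches lipid anchors to Rab proteins, was at or below 2.69 in controls and between 4.66 and 5.69 after smoke. Since the control means of Dcstamp, Aspg and Rabggta lay under the background level, the sizes of these differences (2.99, 3.48 and 3.16) rest on signals too dim to be measured well. Hs3st1, which adds a sulphate to heparan sulphate, differed by 3.44 ± 0.97 with 1 control level with the lowest smoke array. Dynlt1f, a dynein light chain gene with near-identical neighbours that its probe may not separate, differed by 1.69 ± 0.48.

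Of the 12 genes with less signal, Sync had the lowest p. It encodes syncoilin, a protein of the intermediate filament family that is found in muscle. Its log2 signals were 8.94, 7.14, 7.35, 7.95 and 6.11 in controls and 4.75, 4.62, 3.38 and 5.46 after smoke. The groups did not overlap, and the lowest smoke array was just above background. The difference was -2.95 ± 0.66 (adjusted p = 0.402, limma), -2.83 without control array 4 and -2.95 ± 0.70 with the sex-linked covariate.

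Arg1, the arginase that competes with nitric oxide synthases for arginine, had 2.14, 5.74, 4.24, 4.17 and 7.06 in controls and 2.65, 1.93, 2.58 and 2.28 after smoke. All smoke arrays were under background, as was control array 1. The other vessel groups and the knockout septa at 8 months averaged 1.67 to 2.67 for Arg1. The smoke mean of 2.36 lay within that range, and the control mean of 4.67 lay above it. The difference was -2.31 ± 0.60 (adjusted p = 0.861, limma). Ccl11, the eosinophil chemokine eotaxin, had 6.02, 6.85, 4.94, 6.52 and 7.38 in controls and 5.76, 2.56, 1.77 and 2.14 after smoke. Smoke array 1, at 5.76, lay within the controls, and the other 3 were under background. The difference was -3.28 ± 0.97 (adjusted p = 0.999, limma).

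Car14, a membrane-bound carbonic anhydrase, averaged 5.15 ± 1.55 in controls and 1.94 ± 0.94 after smoke. The groups did not overlap, at 3.48 and above against 3.19 and below. Atg10, an enzyme of autophagosome formation, was between 5.38 and 5.60 in all 5 controls and between 1.45 and 4.25 after smoke. Its smoke mean of 2.77 was under background, and the difference of -2.73 is therefore poorly measured. Bcor, an X-linked partner of the repressor BCL6, averaged 6.38 ± 0.55 and 3.99 ± 0.87 with no overlap.

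The remaining 6 were Lce1m of the cornified envelope, Edc3 of messenger RNA decapping, the zinc finger gene Zfp110, the phosphatase subunit Ppp2r2d, the F-box gene Fbxl6 and the calreticulin paralogue Calr3. Their differences ran from -3.75 for Zfp110 to -1.57 for Ppp2r2d. In Lce1m, Edc3 and Calr3 the smoke mean was under background. Without control array 4 all 24 differences kept their sign, and those of the 12 genes with less signal ran from -3.97 to -1.62.

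Promoters of the 3 genes with the lowest p, and of Srf, a muscle regulator described below, are shown to let the letters be read beside the values. They are the 250 bases before the RefSeq start on GRCm38.p6. Palm lies at chr10:79793322-79793571 on the plus strand, Tmem50b at chr16:91597681-91597930 on the minus strand, Sync at chr4:129287371-129287620 on the plus strand and Srf at chr17:46556163-46556412 on the minus strand. Each is printed in the direction of transcription. Capitals mark a match on either strand to GCGTG (the core bound by the aryl hydrocarbon receptor, which senses smoke constituents), to TGACNNNGC (the antioxidant response core of NRF2) or to the CArG box (the site of SRF).
Palm: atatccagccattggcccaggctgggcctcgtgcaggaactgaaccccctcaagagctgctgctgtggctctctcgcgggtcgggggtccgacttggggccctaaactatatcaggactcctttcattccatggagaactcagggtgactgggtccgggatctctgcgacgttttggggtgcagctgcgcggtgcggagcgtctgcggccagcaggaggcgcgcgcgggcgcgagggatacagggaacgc
Tmem50b: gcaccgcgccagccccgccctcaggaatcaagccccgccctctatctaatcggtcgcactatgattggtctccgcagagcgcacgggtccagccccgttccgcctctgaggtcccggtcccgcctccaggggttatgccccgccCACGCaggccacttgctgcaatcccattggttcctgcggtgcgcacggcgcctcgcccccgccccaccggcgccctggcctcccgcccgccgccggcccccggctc
Sync: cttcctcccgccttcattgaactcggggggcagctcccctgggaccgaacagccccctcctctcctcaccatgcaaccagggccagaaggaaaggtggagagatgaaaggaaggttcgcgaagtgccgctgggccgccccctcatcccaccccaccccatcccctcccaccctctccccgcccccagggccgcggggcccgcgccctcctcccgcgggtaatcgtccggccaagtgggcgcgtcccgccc
Srf: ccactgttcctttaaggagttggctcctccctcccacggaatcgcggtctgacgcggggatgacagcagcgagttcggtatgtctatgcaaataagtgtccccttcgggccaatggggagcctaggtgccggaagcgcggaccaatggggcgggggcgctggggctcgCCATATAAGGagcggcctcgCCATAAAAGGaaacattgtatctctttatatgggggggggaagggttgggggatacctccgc
The promoter of Tmem50b held 1 GCGTG match, at base 145 and on the opposite strand, and that of Srf held 2 CArG boxes, at bases 169 and 189. None of the 3 motifs was found in the windows of Palm and Sync. Over all 32851 promoters, 28.2% held GCGTG, 10.2% held TGACNNNGC and 1.47% held a CArG box, so a GCGTG match is common. GCGTG was held by 5 of 11 promoters of listed aryl hydrocarbon receptor targets, 9 of 18 of NRF2 targets and 5 of 13 of smooth muscle genes. In the same order, TGACNNNGC was held by 2 of 11, 5 of 18 and 0 of 13, and a CArG box by 1 of 11, 0 of 18 and 1 of 13. A match is a description of the letters, not a site shown to be used.

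Smooth muscle genes were those that bore out the vessel label. All 15 contractile genes measured had a difference below 0, with a median of -0.32, where 48.9% of all genes were below 0. The median over all genes was 0.02. One contractile gene, Mylk, had less signal at an unadjusted p under 0.05 (1.86% of all genes), and none passed adjustment. Without control array 4 there were 13 below 0, with a median of -0.26. Mean signals of the list ran from 10.7 to 11.9 in controls and from 10.44 to 11.59 after smoke, and these ranges overlapped.

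Mylk encodes the kinase that starts contraction by phosphorylating myosin light chains. It stood at 11.78, 11.43, 10.16, 11.64 and 11.72 in controls and 10.97, 9.96, 9.78 and 9.63 after smoke. Control array 3 lay among the smoke arrays. The difference was -1.26 ± 0.55 (unadjusted p = 0.0269, adjusted p = 0.999, limma). The 4 defining genes differed less, by -0.17 ± 0.23 for Acta2, -0.51 ± 0.44 for Myh11 (smooth muscle myosin, -0.28 without control array 4), -0.24 ± 0.28 for Tagln and -0.44 ± 0.36 for Cnn1. A covariate for pneumocyte markers minus contractile markers turned these 4 to values between 0.08 and 0.16, as a covariate built from these genes can.

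The regulators of the contractile programme had a median of -0.41, with 7 of 10 below 0. They included 2 with less signal at an unadjusted p under 0.05 (1.86% of all genes). The median was -0.66 without control array 3 and -0.29 without control array 4, when 1 gene had an unadjusted p under 0.05. Srf, the factor that binds CArG boxes, stood at 11.13, 10.66, 11.13, 10.39 and 11.11 in controls and 10.40, 9.99, 10.44 and 9.65 after smoke. Only control array 4 fell within the smoke range, and without it the groups did not overlap. The difference was -0.76 ± 0.31 (unadjusted p = 0.0185), and -0.88 without control array 4. Its second probe differed by -0.50. Myocd, the coactivator myocardin, had 4.79, 6.40, 5.25, 6.85 and 5.34 in controls and 5.00, 2.56, 2.50 and 6.13 after smoke. Smoke arrays 2 and 3 were low, and the other pair lay within the controls. The difference was -1.68 ± 0.77 (unadjusted p = 0.0361), and -1.40 without control array 4 (unadjusted p = 0.0938, limma). The adjusted p was 0.999 for both genes in limma.

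Matrix genes pointed in no single direction. Of 14 collagen chains, 10 differed by more than 0, with a median of 0.25. Without control array 4 these were 7 and 0.06. The fibrillar chains Col1a1 and Col1a2 had more signal at an unadjusted p under 0.05 (2.44% of all genes). Col1a2 stood at 11.73, 12.15, 11.09, 12.29 and 11.90 in controls and 12.29, 12.65, 12.29 and 12.53 after smoke, a difference of 0.61 ± 0.27. Control array 4 touched the smoke range, and the groups were apart without it. Col1a1 differed by 0.71 ± 0.31, with overlap.

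Elastic fibre genes had a median of -0.06, with 5 of 13 above 0. Mfap4, a microfibril-associated protein of elastic fibres, stood at 11.67, 11.89, 10.98, 12.18 and 9.70 in controls and at 12.23, 12.17, 12.32 and 12.28 after smoke. The 4 smoke arrays lay within 0.15 of each other, above all controls but number 4. The difference was 0.97 ± 0.38 (unadjusted p = 0.0141). Proteases and their inhibitors had a median of 0.52 with 9 of 15 above 0. That median was 0.14 when all probes of a gene were averaged and -0.06 without smoke array 1. The macrophage elastase Mmp12 and the neutrophil elastase Elane were under background.

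Endothelial genes split between both directions. Pan-endothelial genes were 5 above and 5 below 0 (median 0.03), arterial genes 5 and 6 (-0.07), and capillary genes 6 and 5 (0.07). Leaving out control array 4 turned the sign of the last pair, with 7 of 11 arterial genes above 0 (median 0.27) and 5 of 11 capillary genes (-0.17). Pecam1 differed by 0.44 ± 0.63, and by 0.71 without control array 4, and Cdh5, the adherens junction cadherin, by 0.39 ± 0.32. Venous genes had a median of -0.28 with 3 of 8 above 0, among them Nr2f2. The capillary-listed semaphorin Sema3c differed by 1.50 ± 0.59 (unadjusted p = 0.0161), and its other probe by 0.42.

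Fibroblast lists were a little above 0, at 0.38 for adventitial genes (8 of 12 above 0) and 0.51 for alveolar ones (8 of 10). The adventitial median was -0.06 with the sex-linked covariate. Genes of BMP and TGF-beta signalling, a pathway tied to pulmonary hypertension, had a median of 0.11 with 12 of 22 above 0 and none at an unadjusted p under 0.05. Without control array 4 the median was 0.03, and 1 gene had an unadjusted p under 0.05. The lists of nitric oxide and cGMP (median -0.11, 5 of 14 above 0), of endothelin and prostanoids (0.20, 7 of 12), of vascular ion channels (-0.30, 3 of 13) and of hypoxia (-0.01, 7 of 14) included 2 genes at an unadjusted p under 0.05. These were Arg1 and Gch1, an enzyme of tetrahydrobiopterin synthesis. Over all genes the share at such a p was 4.3%. The ion channel median was -0.59 and the hypoxia median 0.09 without control array 4, and without control array 5 the hypoxia median was -0.22. Gch1 differed by 2.11 ± 0.86 in the probe with the highest mean over all arrays and by -0.30 in its other probe, so its probes did not point the same way. The kept probe differed by 1.68 without control array 4 (unadjusted p = 0.0664, limma).

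**Figure D2:**
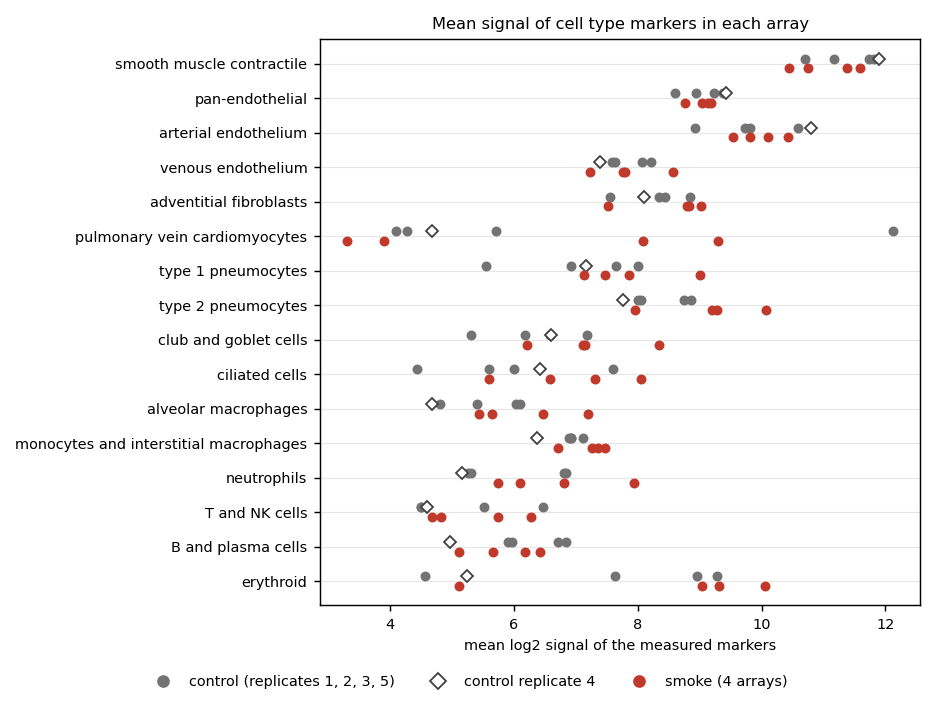
Mean log2 signal of 16 cell type marker lists in each of the 9 arrays (grey, controls; open diamond, control array 4; red, smoke). Smooth muscle means overlap between groups, type 2 pneumocyte means reach 10.07 after smoke against at most 8.86 in controls, and cardiomyocyte means run from 3.31 to 12.12 with no order by group.

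Type 2 pneumocyte genes had the largest median of the 52 lists. It was a median of 1.15 with 11 of 13 above 0, where 51.1% of all genes were above 0. With more signal at an unadjusted p under 0.05 (2.44% of all genes) were 4 type 2 genes, and 3 without control array 4. Their mean signal ran from 7.76 to 8.86 in controls and from 7.96 to 10.07 after smoke. The median was 1.10 without control array 4, 0.86 with the sex-linked covariate and 0.20 with the covariate for tissue makeup, which contains these genes. None passed adjustment.

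Sftpd, a collectin of surfactant that binds microbes, stood at 10.12, 10.33, 9.86, 10.38 and 9.23 in controls and at 11.23, 11.42, 12.26 and 10.92 after smoke. Every smoke array was above every control. The difference was 1.48 ± 0.52 (unadjusted p = 0.00697, adjusted p = 0.999, limma). Hc, complement component 5 and on this list as a gene of mouse type 2 cells, stood at 10.38, 9.47, 9.68, 9.72 and 9.80 in controls and at 11.27, 11.29, 11.56 and 10.47 after smoke. These groups did not overlap. The difference was 1.34 ± 0.53.

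Sftpa1, another surfactant collectin, differed by 1.16 ± 0.50 and Lamp3, a protein of lamellar bodies, by 1.31 ± 0.52, each with overlap. Lamp3 differed by 1.10 without control array 4 (unadjusted p = 0.0511, limma). Sftpc, already near the top of the scale, differed by 0.58 ± 0.29 (unadjusted p = 0.053). Type 1 pneumocyte genes had a median of 0.92 (10 of 12 above 0), with the defining gene Ager spread from 1.42 to 9.77 in controls.

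Airway lists were similar in size. Ciliated genes had a median of 0.96 (10 of 12 above 0), and club and goblet genes 0.78 (10 of 12). Scgb3a1, a secretoglobin of airway secretory cells, stood at 7.46, 6.14, 7.26, 9.35 and 6.95 in controls and 10.77, 12.68, 7.35 and 8.23 after smoke. Smoke arrays 1 and 2 stood high and the other pair lay within the controls. The difference was 2.32 ± 0.87 (unadjusted p = 0.0113), and its 10 probes gave 1.95 to 2.38. Scgb1a1, the main club cell secretoglobin, was near the top of the scale in all arrays and differed by 0.15 ± 0.18. In the other settings the type 2 median was -0.03 in wild-type vessels at 8 months, 0.54 in knockout vessels at 3 months (10 of 13 above 0) and 0.18 in knockout septa. The type 1 median was -0.49, 0.42 (9 of 12 above 0) and -0.09 in the same order. How far carried-over epithelium contributed to the differences of vessel genes was not tested.

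Phagocyte and inflammatory lists included genes with more signal at an unadjusted p under 0.05 (2.44% of all genes). These were 3 of 24 cytokine and chemokine genes, 2 of 14 alveolar macrophage genes and 2 of 14 genes of monocytes and interstitial macrophages. Cxcl1, a chemokine that attracts neutrophils, stood at 5.88, 3.43, 7.59, 2.32 and 6.33 in controls and 7.69, 6.78, 10.36 and 9.32 after smoke. Control array 3 lay within the smoke range. The difference was 3.43 ± 1.44 (unadjusted p = 0.0225), and 2.73 (unadjusted p = 0.0751, limma) without control array 4. Lcn2, lipocalin of neutrophils and stressed epithelium, had 12.00, 11.36, 11.55, 9.62 and 9.95 in controls and 13.15, 12.74, 14.11 and 10.76 after smoke. Smoke array 4 was within the controls and the other 3 were above them. The difference was 1.79 ± 0.67 (unadjusted p = 0.0109). The list of cytokines and chemokines had a median of 0.27 with 15 of 24 above 0, and 0.09 without control array 4.

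Macrophage lists had medians of 0.40 for alveolar (9 of 14 above 0) and 0.20 for interstitial macrophages and monocytes (9 of 14). The second was 0.13 without control array 4 and 0.52 with the mean of all probes. Cd14, the lipopolysaccharide co-receptor, stood at 6.11, 5.86, 8.83, 4.51 and 2.16 in controls and 8.82, 9.19, 7.89 and 7.96 after smoke. Control array 3 was inside the smoke range and the rest were below it. The difference was 2.97 ± 1.14 (unadjusted p = 0.0135). Adgre1, a surface receptor of macrophages, had 4.18, 5.86, 5.73, 3.57 and 5.68 in controls and 5.95, 6.85, 6.40 and 8.13 after smoke. These groups were apart, by 0.09 at the nearest. The difference was 1.83 ± 0.89 (unadjusted p = 0.0481), and 1.47 (unadjusted p = 0.125, limma) without control array 4.

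Chil3, a chitinase-like protein of alveolar macrophages, differed by 3.20 ± 1.39, and by 2.22 without control array 4 (unadjusted p = 0.121, limma). Plet1 differed by 2.36 ± 1.03 in its brighter probe and by -0.995 in the other. The pan-macrophage gene Cd68 had a difference of -1.10, the lowest of its list. Neutrophil genes had a median of 0.91 (10 of 12 above 0), with list means from 5.17 to 6.83 in controls and from 5.74 to 7.94 after smoke. No neutrophil gene had an unadjusted p under 0.05.

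Lysosome and lipid genes had a median of 0.47 with 16 of 19 above 0, and 0.29 without control array 4. Ctss, a cathepsin of antigen-presenting cells, differed by 0.99 ± 0.48, and by 0.53 (unadjusted p = 0.247, limma) without control array 4. Ctsd, the aspartic protease of lysosomes, differed by 0.66 ± 0.30 in 1 probe and by -0.10 in the other. The anaphylatoxin receptor C3ar1 differed by 2.26 ± 0.96, and by 1.82 without control array 4 (unadjusted p = 0.0767, limma). The complement list had a median of 0.11, and -0.02 without that array. T and NK cell genes had a median of 0.49 (9 of 13), B and plasma cell genes -0.10 (5 of 10), or -0.43 without control array 4. Interferon genes had a median of 0.57 (8 of 13), among which Mx1 was under background in every control and at 3.97, 1.25, 5.52 and 6.67 after smoke.

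NADPH oxidase genes are of interest because the allele removes one of their partners. Noxo1 itself averaged 3.74 ± 1.93 (SD, n = 5) in controls and 2.81 ± 1.06 (n = 4) after smoke, a difference of -0.92 ± 0.95 that was -0.10 without control array 4. No source used here says whether its probe lies in the deleted part, so neither the low signals nor the 7.03 of control array 4 settle whether a mouse was a knockout. Its partners Nox1 and Noxa1 differed by -0.42 ± 0.47 and -0.22 ± 0.71. Nox1 was under background in both groups, with control array 4 at 3.93 and the other controls at or below 1.79. Without that array the difference of Nox1 was 0.06.

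Cybb, the catalytic subunit of the phagocyte enzyme, had the largest difference of these genes. It stood at 2.53, 5.69, 8.45, 7.78 and 2.68 in controls and at 10.22, 8.74, 10.83 and 7.91 after smoke. Control array 3 lay within the smoke range, and controls 1 and 5 were under background. The difference was 4.00 ± 1.19 (unadjusted p = 0.00193, adjusted p = 0.999, limma), 4.59 without control array 4 and 3.95 ± 1.27 with the sex-linked covariate. Ncf4, its cytosolic p40 subunit, had 4.10, 4.39, 6.24, 2.30 and 4.12 in controls and 6.51, 7.31, 6.19 and 6.18 after smoke. Control array 3 again fell in the smoke range. The difference was 2.32 ± 0.88 (unadjusted p = 0.0126), and 1.84 (unadjusted p = 0.0501, limma) without control array 4.

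The other phagocyte subunits differed less. Cyba, the membrane partner of several NOX enzymes, differed by 0.12 ± 0.25 in the kept probe and by 1.32 in its second, which was above background in both groups. Ncf1 differed by -0.29 ± 1.06, and by 0.08 without control array 4, and Rac2 by 0.30 ± 0.74. Nox4, a constitutively active enzyme of vessel walls, had 7.60, 5.97, 6.34, 6.73 and 8.02 in controls and 8.08, 7.99, 6.43 and 8.16 after smoke, a difference of 0.73 ± 0.72. Smoke array 3 was low and the others were near the top of the controls. Duox1, Duox2 and their maturation factors Duoxa1 and Duoxa2 differed by -0.12 ± 0.63, -0.74 ± 0.80, 0.17 ± 0.71 and 0.62 ± 0.42. Duox1 differed by -0.02 and Duoxa1 by 0.39 without control array 4. In the kept probes, Duox1, Duox2 and Duoxa2 had group means under background. Of 9 Duox1 probes, 2 had a control mean above background, at 3.33 and 4.04, and these differed by -1.04 and -1.82.

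**Figure D3:**
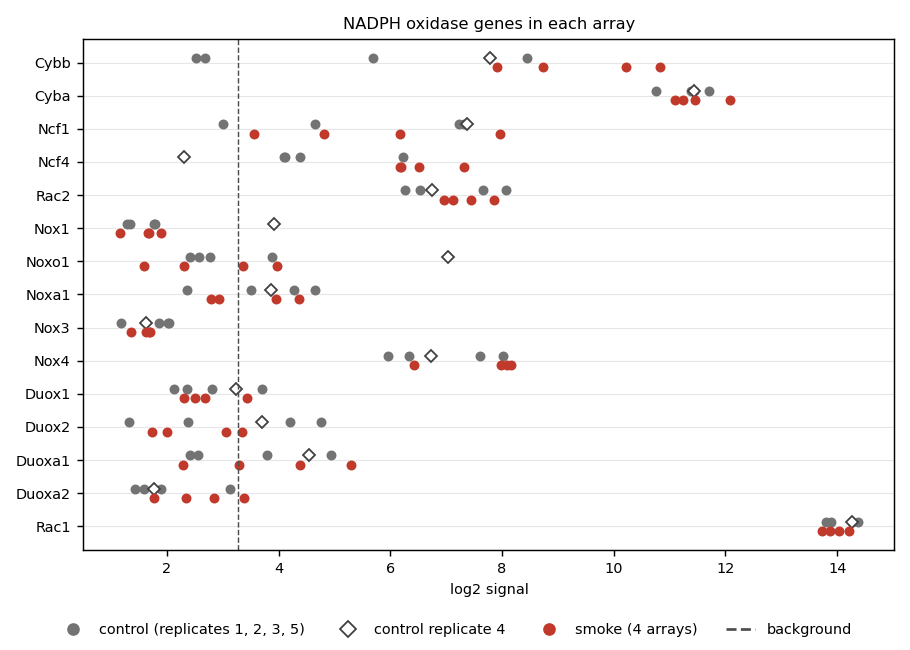
Log2 signal of 15 NADPH oxidase genes in each of the 9 arrays (grey, controls; open diamond, control array 4; red, smoke; dashed line, background at 3.28). Cybb runs from 2.53 to 8.45 in controls and from 7.91 to 10.83 after smoke, and control array 4 stands alone for Noxo1 at 7.03.

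Detoxification genes gave 2 of the lower p values. Gclc, the catalytic subunit of the enzyme that limits glutathione synthesis, stood at 8.57, 9.23, 7.86, 9.69 and 5.10 in controls and 9.38, 9.97, 11.30 and 10.43 after smoke. Control array 4 was the only control inside the smoke range. The difference was 2.18 ± 0.65 (unadjusted p = 0.00183, adjusted p = 0.999, limma) and 2.58 without control array 4, where the groups did not overlap. Gsr, glutathione reductase, stood at 8.12, 9.10, 8.84, 8.34 and 7.23 in controls and 10.45, 9.54, 10.20 and 9.52 after smoke. All smoke arrays were above all controls. The difference was 1.60 ± 0.51 (unadjusted p = 0.00365), and its second probe gave 1.15.

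The NRF2 list as a whole had a median of 0.35 with 12 of 18 above 0. It had 2 genes with more signal at an unadjusted p under 0.05 (2.44% of all genes). The glutathione ligase modifier Gclm, the cystine carrier Slc7a11 and Gsta1 were under background. Aryl hydrocarbon receptor targets had a median of 0.48 with 9 of 12 above 0. Their defining members Cyp1a1, Cyp1a2 and Ahrr were under background in both groups. Tiparp, an ADP-ribosylase induced through that receptor, differed by 1.47 ± 0.71 in 1 probe and by -0.15 in its second.

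Stress and early response genes were mostly on the other side of 0. Of 21 immediate early genes, 19 differed by less than 0, with a median of -0.34, where 48.9% of all genes were below 0. The list was also below 0 in the other settings. Its median was -0.45 in wild-type vessels at 8 months (4 above 0) and -0.67 in knockout vessels at 3 months (3 above 0). In knockout septa at 8 months it was -0.98 (0 above 0). In knockout vessels at 8 months the median was -0.63 without control array 4, with 19 again below 0. It was -0.07 with the sex-linked covariate, with 8 above 0. The sex-linked list, Xist and Y genes, had a median of -1.42 there. It had -1.61 in wild-type vessels at 8 months, -0.13 in knockout vessels at 3 months and -2.16 in knockout septa. In those septa Xist ran from 1.54 to 3.92 in controls. It ran from 11.54 to 12.49 in all smoke arrays but number 2, at 3.09. The medians of the other settings were not refitted with the covariate. Egr3 stood at 6.01, 7.79, 5.81, 5.51 and 6.90 in controls and 5.13, 1.82, 3.98 and 5.22 after smoke. All smoke arrays were below all controls. The difference was -2.37 ± 0.97 (unadjusted p = 0.0194), and -1.69 ± 0.96 with the sex-linked covariate. Myc, the growth regulator, differed by -1.95 ± 0.92, and by -1.64 (unadjusted p = 0.0989, limma) without control array 4.

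Of 12 heat shock genes 5 were above 0, and the median was -0.23. Dnajb1, a partner of HSP70, stood at 11.52, 11.99, 9.91, 11.21 and 11.33 in controls and 9.49, 10.08, 9.12 and 9.65 after smoke. Control array 3 was low, inside the smoke range. The difference was -1.61 ± 0.64 (unadjusted p = 0.0162). The small heat shock protein gene Hspb1 differed by -0.57 ± 0.25. Genes of the unfolded protein and ATF4 response had a median of -0.46 (6 of 15 above 0), which was -0.10 without control array 5 and 0.10 without smoke array 4. Atf4 itself differed by -0.50 ± 0.21, and its second probe by -0.57. It differed by -0.40 without control array 4 (unadjusted p = 0.0834, limma).

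Cdkn1a, the cell cycle inhibitor p21, stood at 8.60, 11.00, 10.06, 10.94 and 10.09 in controls and 8.63, 8.82, 8.93 and 6.25 after smoke. Control array 1 was as low as the smoke arrays, and smoke array 4 was lowest of all. The difference was -1.98 ± 0.70 (unadjusted p = 0.00752, adjusted p = 0.999, limma), and 10 of its 12 probes gave -2.05 to -1.61. The other pair were near background. The senescence and p53 list had a median of -0.15 with 4 of 12 above 0. It was -0.42 without control array 1 and 0.01 without control array 4, with 7 of 12 above 0. Circadian clock genes, which depend on the hour of sampling, had a median of 0.59 with 12 of 15 above 0 and none at an unadjusted p under 0.05. They ran from -1.73 for Arntl to 1.90 for Per3. Their median was 0.67 in wild-type vessels at 8 months (11 above 0), 0.17 in knockout vessels at 3 months (9) and -0.06 in knockout septa (6). The labels give no hour of sampling.

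**Figure D4:**
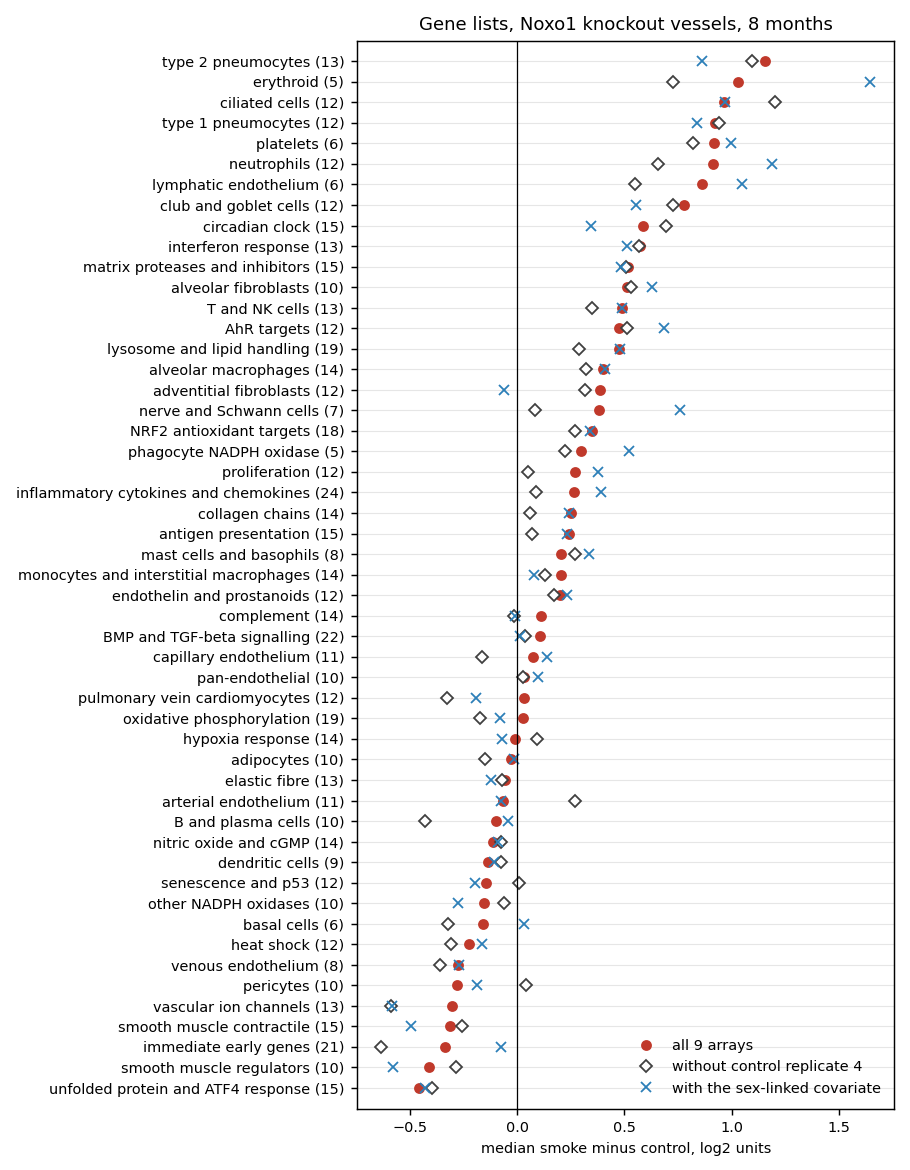
Median smoke minus control difference, in log2 units, of 51 gene lists (number measured in brackets) with all 9 arrays (red), without control array 4 (open diamonds) and with the sex-linked covariate (crosses). The median ran from 1.15 for type 2 pneumocytes to -0.46 for the unfolded protein response, and the erythroid and adventitial lists moved most with the covariate.

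The smoke difference was then set against that in 3 other settings. None of these tests passed any gene in limma. The difference between genotypes, knockout minus wild-type vessels at 8 months, had 0 of 20710 genes (0%) past adjustment and 650 (3.14%) at an unadjusted p under 0.05. The difference from knockout vessels at 3 months had 0 (0%) and 1089 (5.26%). The difference from the septa of knockout mice at 8 months had 0 (0%) and 1238 (5.98%). Leaving out the vessel arrays of mice 7 and 29 also gave 0 in each. The smoke comparisons of those settings likewise passed 0 genes each, with 609 (2.94%), 1283 (6.2%) and 1357 (6.55%) at an unadjusted p under 0.05.

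Palm was among the 3 genes of lowest p named for 2 of these tests. Its smoke difference was 1.78 ± 0.38 in knockout vessels at 8 months, -0.29 ± 0.38 in wild-type vessels, -0.48 ± 0.38 in knockout vessels at 3 months and 0.24 ± 0.35 in knockout septa. The difference between genotypes was 2.07 ± 0.54 and between times 2.27 ± 0.54. The control arrays of the knockout vessels at 8 months enter every one of these differences between settings. Palm averaged 7.83 in those controls and 9.61 in the matching smoke arrays, whereas the other vessel groups averaged 8.57 to 9.26. Those controls were thus the lowest of the vessel groups for Palm, and the smoke arrays the highest. Car14 differed by -3.21 ± 0.80 in knockout and by 0.99 ± 0.80 in wild-type vessels, and the pigment enzyme gene Dct by -1.34 ± 0.47 and 1.16 ± 0.47. The differences between genotypes were -4.20 ± 1.13 and -2.50 ± 0.67.

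Between times, Aspg differed by 3.48 ± 0.89 at 8 months and -2.22 ± 0.89 at 3 months. That gap of 5.70 ± 1.26 did not pass in the fit over vessels. It passed in the fit over 76 arrays (adjusted p = 0.02) and without smoke array 3 of the 3-month group (adjusted p = 0.00506, limma). Lurap1 differed by -3.21 ± 1.14 at 8 months and 3.41 ± 1.14 at 3 months. Between tissues, Rabggta differed by 3.16 ± 0.87 in vessels and -1.88 ± 0.71 in septa, Reps2 by 3.84 ± 1.02 and -0.48 ± 0.39, and the laminin chain gene Lamc3 by 2.02 ± 0.89 and -2.18 ± 0.58. In vessels Lamc3 differed by 1.76 without control array 4 (unadjusted p = 0.0695, limma). Car14, Dct, Aspg, Lurap1, Rabggta and Lamc3 each had at least 1 group mean under background in these comparisons, so the sizes of their gaps are poorly measured.

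For the lowest p values other than Palm, Tmem50b differed by 0.16 ± 0.31 in wild-type vessels, 0.39 ± 0.31 at 3 months and -0.04 ± 0.21 in septa. Sync differed by -0.80 ± 0.66, -0.74 ± 0.66 and -0.12 ± 0.59 in the same order. Fbxl6 was an exception, at -2.66 ± 0.84 in knockout and -2.40 ± 0.84 in wild-type vessels, and Bcor another, at -2.38 ± 0.76 at 8 months and -3.22 ± 0.76 at 3 months. Since the 24 were chosen for a low p in knockout vessels at 8 months, smaller values elsewhere are built into the choice.

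**Figure D5:**
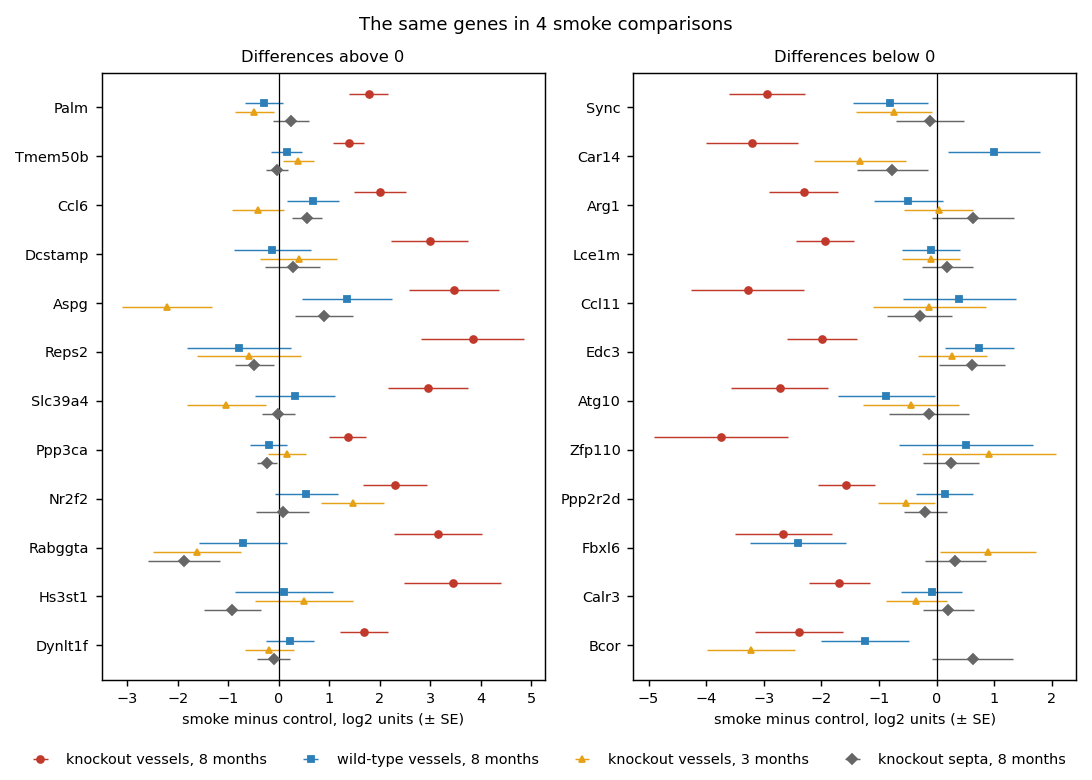
Smoke minus control difference (log2 units, bars ± SE) of the 24 named genes in knockout vessels at 8 months, wild-type vessels at 8 months, knockout vessels at 3 months and knockout septa at 8 months. Palm is at 1.78 in the first and between -0.48 and 0.24 in the others, and Fbxl6 is at -2.66 and -2.40 in knockout and wild-type vessels at 8 months.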

How the data were processed

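RNA from microdissected vessels was measured on single-colour Agilent arrays, and the submitters dropped 4 more that gave no signal. The authors deposited log2 values per feature. Per the submitters' processing notes limma was used, with no version or settings. That the values are log2 and quantile normalized was read from the values, which ran from 0.94 to 15.79 with column medians of 3.19. No source used here names the background correction. Of 62976 features, 31465 had 1 gene symbol and 31511 had none. By accession 29050 matched RefSeq, and 671 with an empty cell were left out. The brightest feature was kept per gene, leaving 20710 genes.

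Group means were fitted with limma 3.58.1 (lmFit, eBayes with trend) in R 4.3.3 over 36 vessel replicates in 8 groups, with the pair of arrays from 1 wild-type mouse averaged, and Benjamini-Hochberg adjustment over all genes. Differences from septa used 76 arrays with mouse as a block (consensus correlation 0.0262). Files were read with data.table (version 1.17.8), and tables and figures were made with Python 3.11.15, numpy 2.4.6, pandas 2.3.3 and matplotlib 3.10.9. The code was tested on simulated data. Fold ratios are 2 to the power of the log2 difference of the deposited values.

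The genes named were the 12 with the lowest p each way among named genes with a difference of at least 1 and a group mean above background. Added to them were up to 4 members of each list at an unadjusted p under 0.05, the NADPH oxidase genes, defining markers, and 3 genes per difference between settings. The members and lists were chosen with earlier results of these data known. Of 668 list entries 635 were measured, and the others were not analysed here. Nothing in the labels says more on separate litters, so p-values measure the spread between these mice. The alternatives tried were the groups compared only, dim genes left out, the mean of all features, cyclic loess, array weights, no trend, a replicate block, covariates for sex-linked genes and tissue makeup, a fit over 76 arrays, that pair of arrays kept apart, no mouse block, and each array left out.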

Additional observations from a re-analysis of the deposited data

Results flagged for a closer look

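In groups of 4 or 5 arrays, 16 of 186 group values had 1 array far from the others relative to the group's range. Independent normal values would give about 1 in 20. That rate is only a guide here. The flagged genes were named or sex-linked genes, many of the named ones were chosen by p, and all share the same arrays. Among controls, array 3 stood high for Reps2 (6.77) and low for Mylk (10.16), Scgb1a1 (15.05) and Foxj1 (4.52). Control array 4 stood high for Nox1 (3.93) and Xist (12.92) and low for Eif2s3y (1.66). Control array 5 stood low for Plet1 (2.16) and control array 2 high for Duoxa2 (3.13). Among smoke arrays, array 4 stood high for Bcor (5.29) and Eif2s3y (7.18) and low for Ppp2r2d (5.76), Cdkn1a (6.25) and Xist (0.96). Smoke array 3 stood low for Ctsd (10.61) and Nox4 (6.43).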

How the results depend on the processing

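No gene passed adjustment for smoke in any setting except 2. The replicate block passed 1 gene (Tmem50b, adjusted p = 0.0151), and the fit over 76 arrays passed 2 (Tmem50b and Reps2). The replicate numbers did not pair the arrays, since same-numbered deviations correlated at -0.0727 to 0.0187 in 4 pairs and 0 smoke arrays were closest to their own number. The lowest adjusted p ranged from 0.0985 to 0.892 as each array was left out, with 0 genes passing in all 9 fits. At an unadjusted p under 0.05 the fit over 76 arrays gave 1492 genes (870 with more signal, 622 with less), and leaving out dim genes, which tests fewer genes, gave 542 (194 with less signal). Leaving out each array gave 771 to 1051 genes, 463 to 589 with more signal and 308 to 462 with less. The difference from 3 months was 0 to 1 gene as each array was left out, and 1 gene, Aspg, in the fit over 76 arrays. The other differences stayed at 0 genes in all settings run.

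Of 89 named genes, 12 changed sign in some setting, none of them among the 24 with the lowest p, and the cause was not tested. Duoxa2 was -0.24 with the mean of all features and Duoxa1 -0.12 with array weights. With the tissue makeup covariate Duox1 was 0.0199, Acta2 0.136, Myh11 0.135, Tagln 0.157 and Cnn1 0.0786. Without mice 7 and 29, chosen after seeing the data, Ncf1 was 0.0757 and Nox1 0.056. As each array was left out, Ncf1 ran from -1.07 to 0.40, Nox1 from -0.60 to 0.056, Noxa1 from -0.56 to 0.0215, Duox1 from -0.35 to 0.0974, Duoxa1 from -0.33 to 0.67, Pecam1 from -0.0548 to 0.79, Cyba from -0.0865 to 0.24 and Acta2 from -0.29 to 0.0251. Of 52 list medians, 10 moved by more than the replicate spread in some setting, among them pericytes (-0.28, and 0.04 without control array 4) and matrix proteases (0.52, and -0.06 and 0.14 without smoke arrays 1 and 3).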

Other observations

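Lists of other cells in the vessel samples varied widely between arrays. Heart muscle genes, which the sleeves of pulmonary veins express, had a mean signal of 12.12 in control array 3, 9.30 in smoke array 2 and 8.08 in smoke array 4, against 3.31 to 5.70 in the other 6 arrays. Their median difference was 0.03, with 6 of 12 above 0, and -0.33 without control array 4. The adipocyte list had means of 4.71 to 8.16 in controls and 4.82 to 6.84 after smoke, with a median of -0.03, or -0.15 without control array 4. Erythroid genes were above 0 in 5 of 5 (median 1.03, and 0.73 without control array 4), with list means of 4.56 to 9.28 in controls and 5.12 to 10.05 after smoke. Pf4, the platelet chemokine, stood at 3.58, 6.08, 7.43, 1.81 and 6.13 in controls and 8.62, 7.19, 7.10 and 9.36 after smoke, a difference of 3.06 ± 1.01 (unadjusted p = 0.00453, adjusted p = 0.999, limma). Control array 3 alone lay in the smoke range, and the difference was 2.26 without control array 4.

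Mbp, the myelin basic protein, differed by 1.92 ± 0.93 with no overlap in the kept probe, and its other probe was under background. Nerve and Schwann cell genes had a median of 0.38 with 4 of 7 above 0, which was 0.09 without control array 4 and 1.22 with dim genes left out. Proliferation genes had a median of 0.27 (9 of 12), which was 0.05 without control array 4. Genes of oxidative phosphorylation had a median of 0.03 (10 of 19 above 0), and of -0.17 (4 of 19) without control array 4. Ndufb9 of complex I differed by -0.85 ± 0.41. Spdef, a goblet cell regulator, was at 3.06, 3.71, 2.60, 1.50 and 1.79 in controls and at 1.88, 4.34, 4.80 and 7.69 after smoke. It differed by 2.14 ± 0.93, and by 1.89 without control array 4 (unadjusted p = 0.0639, limma).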
